A study of Mus musculus with 6 samples.

Results

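The cytosolic ribosomal protein genes of the mouse were taken as the 82 rows of the deposited gene table, of 29872 in all, whose symbol has the form of a large subunit (Rpl) or small subunit (Rps) protein gene, with names of pseudogenes left out. Of these rows 51 belong to the large and 31 to the small subunit, and they lie on 19 chromosomes. GENCODE annotates 79 of them as protein-coding and 3 as pseudogenes, which are Rpl6l, Rpl32l and Rps4l. RNA had been sequenced in bulk from 3 libraries labelled CML, for chronic myeloid leukaemia, and 3 labelled WT, for wild type. Both groups were untreated bone marrow cells of C57BL/6 mice that had been expanded ex vivo and sorted as Lin-Sca1+cKit+CD150+, a gate for blood stem cells. The labels name no allele or transgene behind CML, give no age, and do not state that the replicates are separate animals or cultures, so each p-value measures only how these libraries vary, a variation that may be technical.

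A cytosolic ribosome is built from a large and a small subunit, each a scaffold of ribosomal RNA that carries a set of ribosomal proteins, most of them present as a single copy. Their mRNAs start with a run of pyrimidines, the 5′ terminal oligopyrimidine (TOP) motif, through which the mTOR kinase and the RNA-binding protein LARP1 control their translation and stability. Stem cells of the blood are known for low protein synthesis, and heterozygous loss of single ribosomal protein genes is known to cause anaemia in humans. Ribosomal protein mRNAs have also been copied back into the genome many times, which has left processed pseudogenes that lack introns and can be nearly identical in sequence to the parent gene.

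Those copies have rows of their own in the table. By sequence, 996 other rows matched the coding sequence of a member at an identity of at least 85% over at least 50% of its length, and 983 of them are annotated as pseudogenes. Such a copy row was found for 75 members, and the copy rows held 63.7% of the counts of members and copies together. The copy with the most counts was at a median identity of 99.6% to its gene, and for 20 members it was at 100%. How reads shared between a gene and its copies were divided is not given in the sources used here, so the value of a member's own row is uncertain. The main counts and medians, and most genes lower on own rows, are therefore given for the own row and for a sum. That sum adds the copy rows to the own row and was chosen after the data had been seen. Several other members are given by their own-row values alone.

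A pair of members shows the range of this overlap, in the first 120 coding bases (GENCODE, GRCm38), with capitals at letters that differ between gene and copy. Rpl39 (X:37082520-37085402, minus strand) encodes a short protein of the exit tunnel, and the most counted of its 5 copies was Gm38391 (9:92538801-92542869), a model that GENCODE holds for experimental testing. Over the 153 coding bases the alignment had 16 mismatches and 1 gap, and the own row of Rpl39 held 77.5% of the summed counts.
Rpl39: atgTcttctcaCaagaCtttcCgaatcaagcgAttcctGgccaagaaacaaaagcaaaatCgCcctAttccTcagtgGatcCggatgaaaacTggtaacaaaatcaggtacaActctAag
Gm38391: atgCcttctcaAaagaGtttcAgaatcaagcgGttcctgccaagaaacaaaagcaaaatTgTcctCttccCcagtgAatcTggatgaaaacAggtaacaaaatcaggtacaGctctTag
The other pair has no capitals. Rps23 (13:90922958-90924950, plus strand) encodes a protein of the decoding centre. Its processed pseudogene Rps23-ps1 (3:37714740-37715164) matched it with 0 mismatches and 4 gap bases over the 429 coding bases. Those 4 bases are the last of the coding sequence, past the end of the annotated pseudogene. Over the 6 libraries the row of the pseudogene held 45777 counts and that of the gene 5524.
Rps23: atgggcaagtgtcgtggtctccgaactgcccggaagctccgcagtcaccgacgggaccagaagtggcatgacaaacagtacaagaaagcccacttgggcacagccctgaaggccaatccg
Rps23-ps1: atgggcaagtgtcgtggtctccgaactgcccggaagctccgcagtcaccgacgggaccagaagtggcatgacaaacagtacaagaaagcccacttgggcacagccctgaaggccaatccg

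Libraries are named by group and replicate number, as in CML 1. Their totals ran from 13323552 to 17926866 counts. A ribosomal RNA model, CT010467.1, held 198233 counts in CML 3 and 49 to 1772 in the other libraries, and its removal is among the alternatives given after the report. The summed level of 7 mast cell markers, 0 of them at zero in all libraries, ran from 1961 to 6869 CPM (scaled library counts, as edgeR gives them) in CML and from 110 to 248 CPM in WT. Summed monocyte and macrophage markers (6 genes) ran from 108 to 194 CPM in CML and 19.0 to 28.1 CPM in WT, erythroid markers (6) from 7.97 to 34.2 and 49.7 to 59.4 CPM, and megakaryocyte markers (5) from 115 to 179 and 261 to 287 CPM, so that these lists and the mast cell markers did not overlap between the groups. Lymphoid sums (6 genes) were at most 6.01 CPM, and higher in every CML than in every WT library, while neutrophil and dendritic sums overlapped. In each list 0 markers were at zero in every library. Of the genes behind the sort, Kit ran from 202 to 402 CPM in CML and 285 to 302 CPM in WT, Ly6a (Sca1) from 65.3 to 172 and 40.0 to 64.2 CPM, and Slamf1 (CD150), which was lower in CML (log2 fold change -0.80, adjusted p = 0.0470), from 11.2 to 19.2 and 18.7 to 31.8 CPM. Of the stem cell genes Cd34, Procr and Hlf, Hlf was also lower (log2 fold change -1.36, adjusted p = 0.0229). The part of these cell type markers in the results below was not tested, and in bulk RNA a change in the share of a cell type and a change of RNA per cell cannot be told apart.

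The share of RNA taken by ribosomal protein genes overlapped between the groups. The own rows of the large subunit held 1.05%, 0.900% and 0.961% of the library counts in CML 1, CML 2 and CML 3, and 0.848%, 0.899% and 1.13% in the WT replicates. For the small subunit the shares were 1.02%, 0.833% and 0.891% in CML and 0.854%, 0.903% and 1.13% in WT. In both subunits the order was the same at the top, with WT 3 highest and CML 1 next. With copy rows added, both subunits together held 5.61%, 4.73% and 4.98% of the counts in CML and 4.73%, 4.90% and 6.16% in WT, again with overlap. The ratio of small to large subunit counts was 0.972, 0.926 and 0.927 in CML and 1.01, 1.00 and 0.999 in WT on own rows, where the groups did not overlap. On the sums with copy rows it was 0.740, 0.707 and 0.721 in CML and 0.718, 0.733 and 0.744 in WT, and the groups overlapped.

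**Figure D1:**
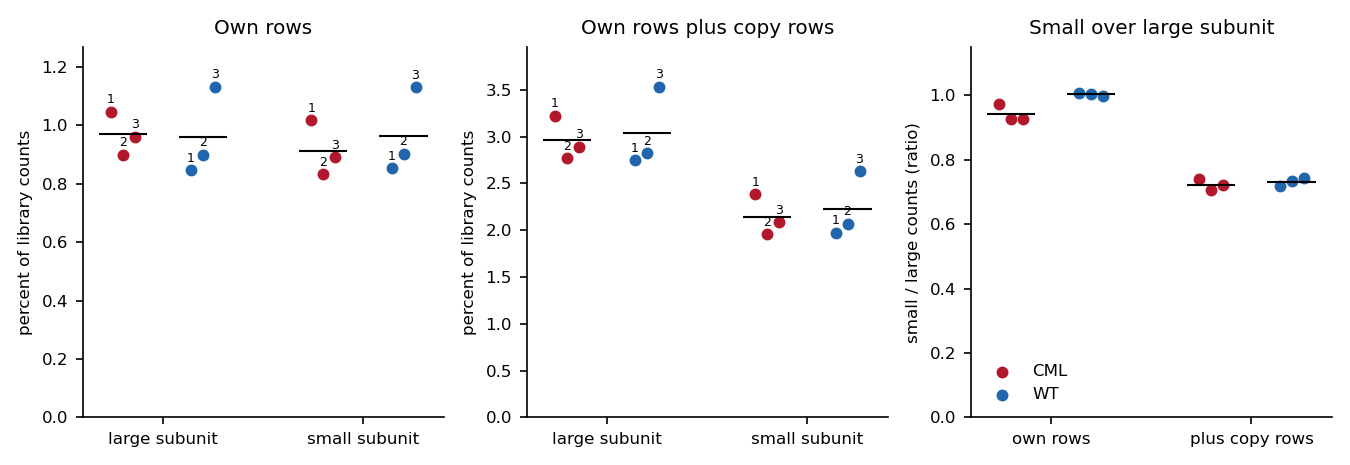
Percent of library counts in ribosomal protein rows (left, own rows; centre, own plus copy rows) and ratio of small to large subunit counts (right), with 1 point per library (red CML, blue WT; digits are replicate numbers) and a line at the group mean. The shares overlap between the groups, with WT 3 highest, while the ratio separates the groups on own rows and not once copy rows are added.

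Of the 82 rows, 78 had enough counts to be tested, 48 of the large and 30 of the small subunit. On own rows 16 of the 78 (20.5%) fell in CML and 0 rose (adjusted p under 0.05 in the quasi-likelihood test of edgeR), 10 of 48 in the large and 6 of 30 in the small subunit. Among all 16221 tested genes 17.4% were called, 7.2% lower and 10.2% higher in CML. Those shares come from 1168 lower and 1652 higher genes, a split that became 732 and 2065 when scaled by library totals alone and 2302 and 1435 with trends of gene length and GC content removed. At an unadjusted p under 0.05, 24 members were lower and 0 higher, DESeq2 called 18 lower and 0 higher, and limma-voom 15 lower and 0 higher. No share of all genes under these criteria is given, here or for the lists below. Such counts are therefore not read against a background. All 3 CML libraries lay below all 3 WT libraries for 24 of the 78 members and above them for 0, against 16.5% and 18.5% of all tested genes.

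Most changes were small. The median log2 fold change, CML minus WT, was -0.19 over the large subunit and -0.16 over the small subunit, beside -0.004 over all tested genes, and 10 of the 78 members had a positive value. Set against the WT mean, the median large subunit gene was at -0.05, -0.26 and -0.20 on the log2 scale in CML 1, CML 2 and CML 3, and at -0.10, -0.06 and 0.17 in the WT replicates. The small subunit gave -0.01, -0.28 and -0.20 in CML and -0.07, -0.06 and 0.16 in WT. CML 1 thus lay among the WT libraries for both subunits. Within CML, every summed cell type list given above, not the mast cell markers alone, was lowest in CML 1. Any part of these markers in its position was not tested. Without WT 3 the medians were -0.10 and -0.08. Scaled by library totals alone they were -0.10 and -0.06, with 7 large and 2 small subunit members lower and 0 higher.

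**Figure D2:**
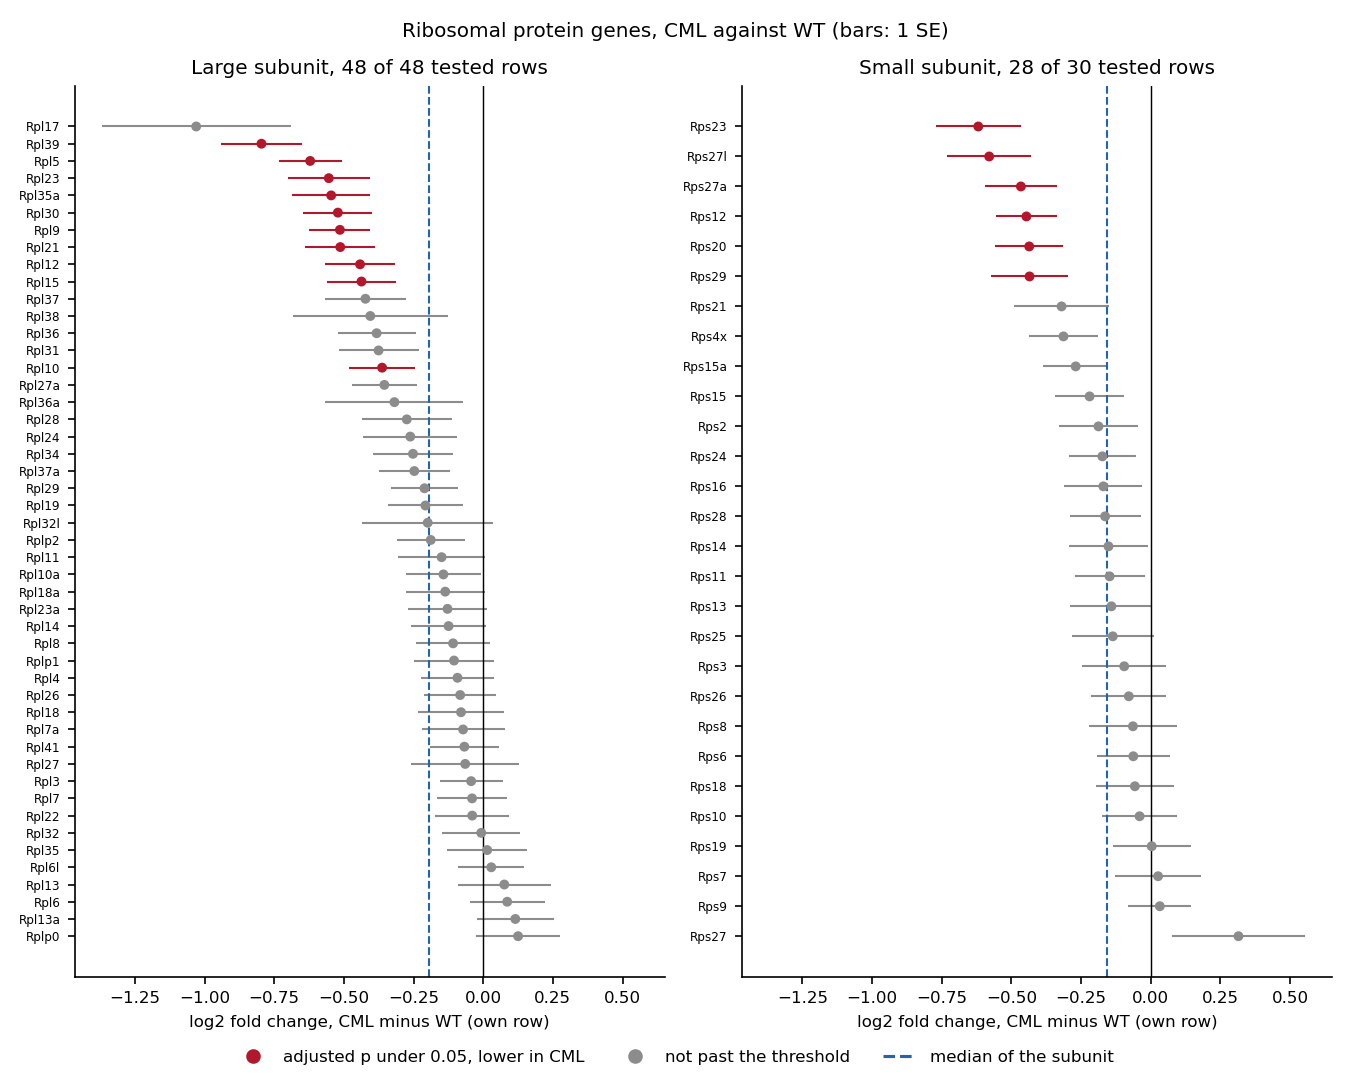
Log2 fold change, CML minus WT, of the own row of each tested member (points; bars 1 standard error), large subunit left and small subunit right, ordered by value (28 of its 30 rows are drawn). Red marks the 10 large and 6 small subunit genes lower in CML at an adjusted p under 0.05, and the dashed line is the median of the subunit, -0.19 and -0.16.

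Adding the copy rows reduced the number of lower members. On the sums, 7 of 76 members fell in CML and 0 rose (edgeR), 5 of 46 in the large and 2 of 30 in the small subunit (9.21% of the sums), where 7.55% of all 15821 tested genes were lower and 10.5% higher. At an unadjusted p under 0.05, 14 sums were lower and 0 higher, DESeq2 called 10 lower and 0 higher, and limma-voom 8 lower and 0 higher. These counts too have no share of all genes beside them. The edgeR share of 9.21%, near the 7.55% of all tested genes, is not a result about the members. The medians were -0.17 for the large and -0.16 for the small subunit, close to those of the own rows, and 74 of 76 members kept their sign. Of the 16 own-row calls, 6 (37.5%) were also made on the sums, and they are Rpl39, Rpl23, Rpl30, Rpl35a and Rpl21 of the large subunit and Rps27l of the small.

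**Figure D3:**
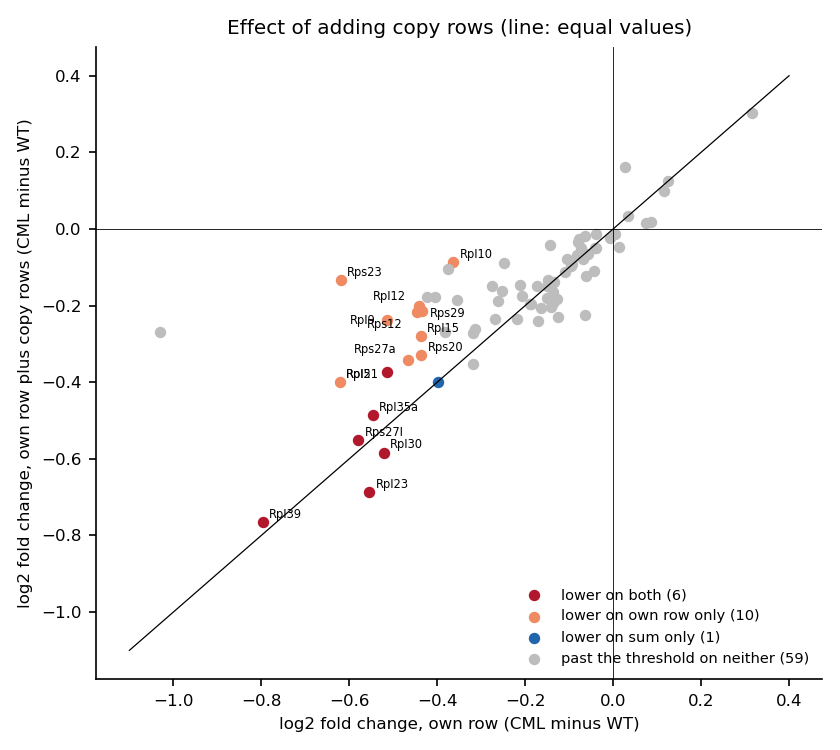
Log2 fold change of each of 76 members on the sum of own and copy rows (y axis) against that on the own row (x axis), CML minus WT, with a line of equal values. The 6 red genes were lower on both scales, the 10 orange genes on the own row only and 1 blue gene on the sum only, and most orange genes lie above the line, nearer to 0 on the sum.

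Rpl39 had the lowest adjusted p of the family. Its own row was at 37.4, 33.7 and 30.8 CPM in CML 1, CML 2 and CML 3 and at 67.7, 61.4 and 47.8 CPM in WT. Every CML library lay below every WT library. The mean was 34.0 ± 3.32 CPM over the CML libraries and 59.0 ± 10.1 CPM over the WT libraries (SD, n = 3), which gives a log2 fold change of -0.80 (edgeR, adjusted p = 0.00234, SE 0.14). On the sum with its 5 copies the value was -0.77 (adjusted p = 0.00208, SE 0.14). Its call held on the own row and on the sum with each library left out in turn, with an adjusted p of at most 0.0154 in all own-row alternatives.

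Rpl23, whose protein is known to bind MDM2 when free of the ribosome (11:97777527-97782437), was at 93.7, 88.4 and 75.6 CPM in CML and 154, 119 and 105 CPM in WT on its own row. The log2 fold change was -0.55 (adjusted p = 0.0205, SE 0.15). With its 3 copy rows the levels were 213, 200 and 170 CPM in CML and 411, 282 and 245 CPM in WT, with WT 1 far above the others, and the change was -0.69 (adjusted p = 0.0253, SE 0.18). Groups did not overlap on either scale. The own-row call was lost without CML 3 (adjusted p = 0.0998), WT 1 (0.0800) or WT 2 (0.05001), and that of the sum without CML 2 (0.0536) or CML 3 (0.0921).

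Rpl30, which encodes an RNA-binding protein of the large subunit (15:34440505-34443640), was at 79.7, 70.0 and 68.2 CPM in CML and 107, 115 and 90.4 CPM in WT on a row that held 15.1% of its summed counts. The sum over its 15 copies was at 550, 435 and 423 CPM in CML and 791, 688 and 630 CPM in WT. CML was below WT in every library on both scales, by -0.52 on the own row (adjusted p = 0.0115, SE 0.12) and -0.58 on the sum (adjusted p = 0.0111, SE 0.14). Without CML 3 the own row missed the threshold (adjusted p = 0.0623), as it did without WT 2 (0.0796), and the sum missed it without CML 2 (0.0558) or CML 3 (0.0688).

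Rpl35a, a gene in which mutations are known in Diamond-Blackfan anaemia (16:33056453-33060189), was at 67.2, 49.3 and 54.0 CPM in CML and 82.3, 93.5 and 73.3 CPM in WT. Its change was -0.55 on the own row (adjusted p = 0.0177, SE 0.14) and -0.49 on the sum (adjusted p = 0.0175, SE 0.13). Rpl21 (5:146832890-146837032), with 75 copy rows the most copied of the genes named here, was at 25.6, 27.3 and 25.7 CPM in CML and 41.5, 36.7 and 33.8 CPM in WT on its own row. Its change was -0.51 there (adjusted p = 0.0134, SE 0.13) and -0.37 on the sum (adjusted p = 0.0402, SE 0.12). The groups of both genes stayed apart on both scales. The Rpl35a row lost its call without CML 2 (adjusted p = 0.0763), CML 3 (0.0764) or WT 2 (0.105), and the Rpl21 row without CML 3 (0.0585), WT 1 (0.0589) or WT 2 (0.0561). The sum of Rpl35a lost it without the same 3 libraries as its row (adjusted p = 0.0919, 0.0948 and 0.0785), and the sum of Rpl21 in every such fit except that without WT 3 (0.0559 to 0.181).

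Rps27l, a paralogue of Rps27 known as a target of p53 (9:66946086-66949516), was the small subunit gene lower on both scales. Its own row held 83.5% of the summed counts and was at 25.3, 20.1 and 19.5 CPM in CML and 31.4, 37.4 and 28.4 CPM in WT. No CML library reached a WT library. The log2 fold change was -0.58 (adjusted p = 0.0186, SE 0.15), and -0.55 on the sum (adjusted p = 0.0165, SE 0.14). Both calls were lost without CML 2 (0.0671 and 0.0613), CML 3 (0.0895 and 0.0830) or WT 2 (0.124 and 0.111). Rps27 itself had the highest value of its subunit, at 4.27, 4.38 and 3.44 CPM in CML and 2.81, 3.54 and 3.36 CPM in WT (log2 fold change 0.32, adjusted p = 0.407), and its groups overlapped.

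**Figure D4:**
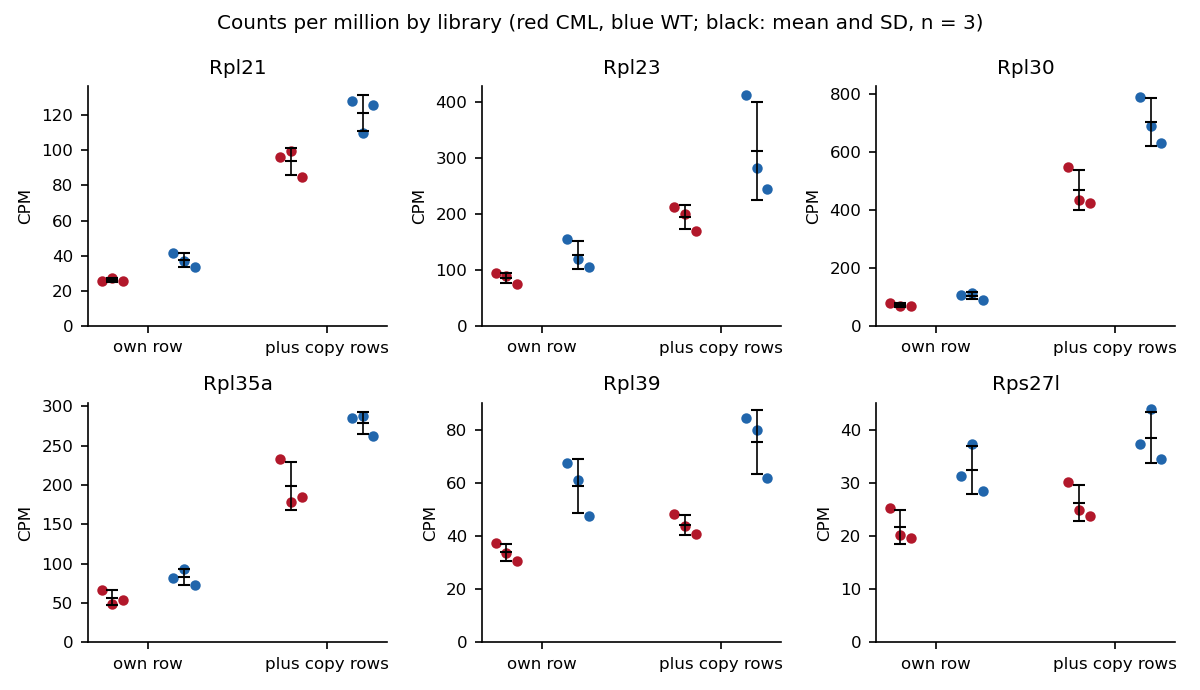
CPM (linear axis from 0) of the 6 members lower in CML on the own row and on the sum of own and copy rows, with 1 point per library (red CML, blue WT) and the mean and SD in black. In each panel every red point lies below every blue point of the same scale.

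Rpl5 and Rpl11 join the 5S RNA in a particle that docks on the large subunit and that, when free, binds MDM2. Rpl5 (5:107900502-107909005) was at 53.7, 56.9 and 53.1 CPM in CML and 85.4, 89.8 and 76.5 CPM in WT, a change of -0.62 (adjusted p = 0.00239, SE 0.11) that held with each library left out. That row held 2.4% of the counts summed with its copies, among which Gm15500 matched the coding sequence at 100% identity. On the sum Rpl5 was at 2693, 2367 and 2297 CPM in CML and 3446, 3131 and 3126 CPM in WT, a change of -0.40 that did not pass (adjusted p = 0.0535, SE 0.13), although the groups did not overlap. Rpl11 was at 17.3, 13.6 and 15.8 CPM in CML and 15.6, 16.7 and 19.5 CPM in WT, with overlap, and did not pass on either scale (log2 fold changes -0.15 and -0.18, adjusted p = 0.557 and 0.362).

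The stalk of the large subunit, which recruits translation factors, is made of Rplp0, Rplp1 and Rplp2 on a base that includes Rpl12. Rplp0, the most abundant large subunit gene per kilobase of transcript (a mean of 1390 CPM per kb), had the highest value of its subunit, at 2122, 1829 and 1958 CPM in CML and 1518, 1742 and 2158 CPM in WT (log2 fold change 0.13, adjusted p = 0.615), and its groups overlapped. That sign turned with length and GC trends removed. Rplp1 was at -0.10 (adjusted p = 0.664) and Rplp2, with 98.2% of its counts in its own row, at -0.19 (adjusted p = 0.324). Rpl12 was lower on its own row, at 47.1, 38.2 and 46.8 CPM in CML and 56.6, 57.7 and 65.3 CPM in WT (log2 fold change -0.44, adjusted p = 0.0294, SE 0.13), and lost that call without CML 2 (0.139), CML 3 (0.0629) or WT 2 (0.0828). This row held 4.7% of its summed counts, and the sum was at -0.20 (adjusted p = 0.352) with overlapping groups.

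Rpl9, a core protein gene of the large subunit, was at 40.2, 39.3 and 40.6 CPM in CML and 56.3, 58.9 and 56.4 CPM in WT, so that the libraries of a group lay close together and the groups apart. Its change was -0.51 (adjusted p = 0.00618, SE 0.11), and it held with each library left out. Its row held 7.6% of the summed counts, and on the sum the change was -0.24 (adjusted p = 0.187). Rpl15, at 45.0% in its own row, was at 335, 294 and 262 CPM in CML and 398, 433 and 374 CPM in WT (log2 fold change -0.44, adjusted p = 0.0286), and its sum was at -0.28 (adjusted p = 0.151). The Rpl15 call was lost without CML 2 (0.0957), CML 3 (0.154), WT 1 (0.0545) or WT 2 (0.136).

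Rpl10, which completes a late step of large subunit maturation, lies outside the rule for named genes and was added after its values were seen as the 1 remaining large subunit call. It was at 63.6, 51.2 and 60.1 CPM in CML and 73.5, 75.6 and 75.9 CPM in WT (log2 fold change -0.36, adjusted p = 0.0496, SE 0.12), on a row with 4.6% of its summed counts. The sum was at -0.09 (adjusted p = 0.707), and the own-row call held in 2 of the 6 fits that leave out a library, missing the threshold without CML 2 (0.216), CML 3 (0.118), WT 1 (0.0868) or WT 2 (0.160). Of the 16 alternatives that keep all libraries, the sum included, 8 also ended that call. Rpl17 had the lowest fold change of the large subunit without passing the test, at 1.57, 1.46 and 2.32 CPM in CML and 4.06, 4.80 and 2.12 CPM in WT (log2 fold change -1.03, adjusted p = 0.0531, SE 0.34). Its row was the least abundant tested one of its subunit per length and held 0.79% of the counts summed over 51 copies, and the sum was at -0.27 (adjusted p = 0.145).

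In the small subunit, Rps23 had the lowest value, at 55.0, 41.7 and 40.7 CPM in CML and 78.3, 74.9 and 57.9 CPM in WT (log2 fold change -0.62, adjusted p = 0.0139, SE 0.15). The groups were apart on the own row, yet overlapped on the sum with the pseudogene printed above and 12 more copies, where the change was -0.13 (adjusted p = 0.530, SE 0.13). The own row held 8.98%, 8.90% and 7.76% of the summed counts in CML and 14.2%, 13.4% and 8.96% in WT, so that WT 3 was like CML 1. The own-row call was lost without CML 2 (0.0505), CML 3 (0.0708) or WT 2 (0.0671).

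The other 4 small subunit genes lower on own rows were Rps27a, Rps12, Rps20 and Rps29, and their sums did not pass (edgeR, adjusted p = 0.0787 to 0.351). Rps27a, which encodes a fusion of ubiquitin and a ribosomal protein, was at 35.7, 29.9 and 39.4 CPM in CML and 51.7, 45.7 and 47.6 CPM in WT (log2 fold change -0.47, adjusted p = 0.0264). Rps12 was at 62.5, 56.0 and 63.6 CPM in CML and 80.7, 83.7 and 83.8 CPM in WT (-0.45, adjusted p = 0.0140). All CML libraries were below all WT libraries for both.
Rps20, a gene of the head of the small subunit, was at 185, 152 and 152 CPM in CML and 235, 226 and 200 CPM in WT (-0.44, adjusted p = 0.0272), and Rps29, also of the head, at 16.6, 16.6 and 14.4 CPM in CML and 21.03, 21.2 and 21.99 CPM in WT (-0.43, adjusted p = 0.0447). Fits that left out a library kept the call of Rps12 in 4 of 6, that of Rps27a in 3, that of Rps20 in 2 and that of Rps29 in 1. The call of Rps29 held only without WT 3 (adjusted p = 0.0530 to 0.177 in the other 5 fits), and the others were lost without CML 2 (0.0774 for Rps12, 0.130 for Rps27a, 0.119 for Rps20) and WT 2 (0.0716, 0.0672 and 0.107). Rps27a was also lost without WT 1 (0.0803), and Rps20 without WT 1 (0.0821) or CML 3 (0.127).

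Rps19, Rps14, Rps26, Rps6 and Rps4x did not pass the test on either scale. Rps19, the gene most often mutated in Diamond-Blackfan anaemia, was at 201, 166 and 183 CPM in CML and 151, 182 and 216 CPM in WT (log2 fold change 0.004, adjusted p = 0.990, SE 0.14), with a sign that turned under several settings. Rps14, whose loss marks the 5q- syndrome, was at -0.15 (adjusted p = 0.509, SE 0.14), and Rps26 at -0.08 (adjusted p = 0.737, SE 0.14). Rps6, whose protein is phosphorylated by S6 kinase downstream of mTOR, was at 36.2, 28.0 and 29.9 CPM in CML and 31.7, 32.2 and 34.3 CPM in WT (log2 fold change -0.06, adjusted p = 0.787, SE 0.13), on a row with 2.3% of its summed counts. The groups of these 4 genes overlapped.
Rps4x, the X-linked form of a gene that also has a Y-linked form in humans, was at 1100, 945 and 993 CPM in CML and 1295, 1196 and 1282 CPM in WT. Its groups were apart, yet its change of -0.31 did not pass (adjusted p = 0.0986, SE 0.12).

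Of the rows with a final l in the symbol besides Rps27l, Rpl6l and Rpl32l are annotated processed pseudogenes and were tested. Rpl6l was at 222, 201 and 212 CPM in CML and 190, 196 and 236 CPM in WT (log2 fold change 0.03, adjusted p = 0.902), and Rpl32l at 4.30 to 6.98 CPM (-0.20, adjusted p = 0.608), each with overlap. The tissue-restricted paralogues were nearly silent. Rpl10l, known from the testis, had 1 count in CML 3 and 0 elsewhere, Rpl3l, known from muscle, had at most 4 counts in a library, and Rpl39l, also known from the testis, had 16 counts in WT 2 and at most 1 elsewhere. Rps4l, the third annotated pseudogene, had 44 counts in CML 1 and 0 to 7 elsewhere. These 4 rows were not tested.

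Calls were also counted by the share of a gene's counts that lay in its own row. Beside them, 7.2% of all tested genes were lower on own rows and 7.55% in the fit on sums. A trend with that share was not tested. Of the 21 members with under 10% in the own row, 5 were lower on the own row and 0 as a sum (0 rose on either scale, edgeR). In the class from 10 to 50% the counts were 9 and 5 of 32, and from 50 to 90% they were 2 and 2 of 18. The 5 members with 90% or more, among them Rpl22, Rpl8, Rplp2 and Rps3, had 0 calls on either scale, with log2 fold changes from -0.19 to -0.04 on own rows. Between the groups, the own-row share itself was lower in every CML than in every WT library for 8 of the 75 members with copies and higher for 5, and overlapped for 62. The 8 included Rpl5, Rpl9, Rpl10 and Rpl12, all lower on own rows and not as sums, and the 5 included Rpl23. The own-row share is the own row over the sum. A gene whose own row fell more than its sum has a lower share by construction, which adds no separate evidence. The part of read division in those 4 calls was not tested.

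**Figure D5:**
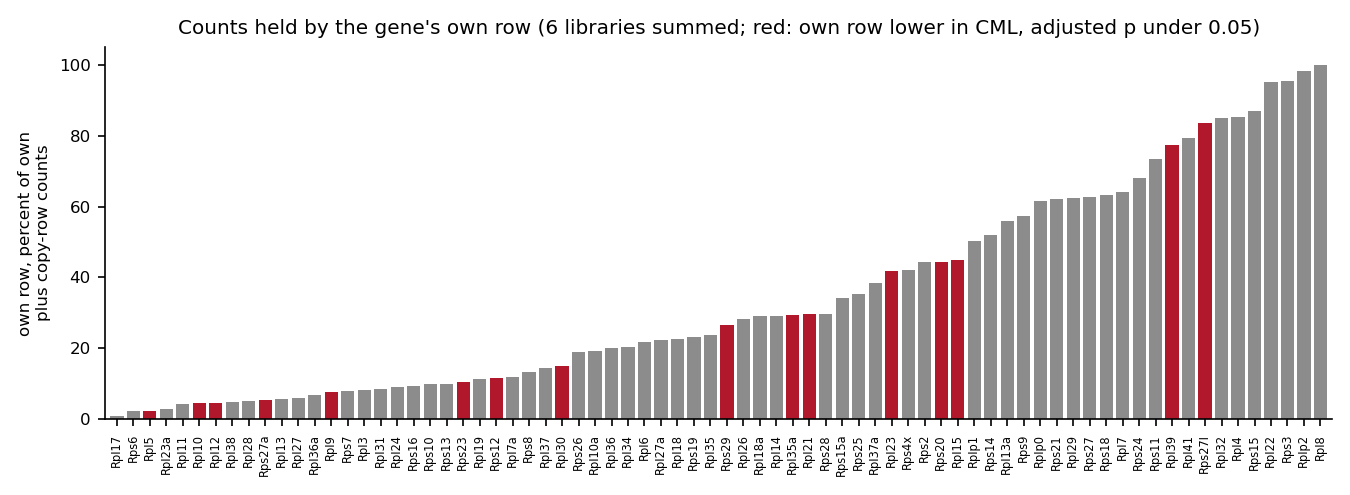
Percent of the counts of own and copy rows, summed over the 6 libraries, that lay in the own row of 74 of the 76 tested protein-coding members (bars, from 0), in order; the other two are not drawn. Red marks members whose own row was lower in CML at an adjusted p under 0.05, which spread from 2.4% (Rpl5) to 83.5% (Rps27l).

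Members lower on own rows had less GC in their transcripts, with a median of 48.6% against 52.6% in tested members that did not pass. Across the 78 tested members the Spearman coefficient between GC content and log2 fold change was 0.36, and across 15839 tested genes with a GC value it was 0.31. These are descriptions across genes of the same libraries, and genes are not independent replicates. With trends of gene length and GC content removed from each library, 15 large and 9 small subunit members were lower, while lower calls over all genes went from 1168 to 2302, and the subunit medians were -0.24 and -0.21.

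Promoter windows, from 250 bases before to 50 after the start (RefSeq, GRCm38.p6), were found for 60 of the 82 members. The letters CTTTC, a pyrimidine core as found in TOP starts, occurred on the sense strand within 50 bases of the start in 48.3% of members and 12.6% of all 27025 promoters. That stretch includes bases before the start, so the count does not measure a TOP motif at the first base of the mRNA. CCGGAAG, the core of ETS and GABP sites, occurred on either strand in 38.3% against 9.12%, AAGATGGC, a YY1 core, on either strand in 6.67% against 2.88%, and TATAAA on the sense strand before the start in 3.33% against 8.12%. Matches of different motifs may share letters. Among members lower on own rows, 6 of 11 windows held CTTTC and 3 of 11 CCGGAAG, beside 22 and 19 of 46 for tested members that did not pass, and these differences were not tested. The windows of the 4 matched members lower on both scales are shown from 60 bases before to 30 after the start, because these genes were lower whether or not copy rows were counted, with CCGGAAG (or its reverse complement), and CTTTC where it lies within 50 bases of the start, in capitals.
Rpl39 (X:37085193-37085282, minus strand): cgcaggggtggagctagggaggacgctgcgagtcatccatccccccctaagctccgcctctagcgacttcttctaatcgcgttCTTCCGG
Rpl23 (11:97782410-97782499, minus strand): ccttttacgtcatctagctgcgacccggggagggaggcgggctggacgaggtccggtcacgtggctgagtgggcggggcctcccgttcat
Rpl35a (16:33056393-33056482, plus strand): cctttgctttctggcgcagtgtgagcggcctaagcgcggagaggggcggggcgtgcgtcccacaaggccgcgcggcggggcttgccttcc
Rps27l (9:66946026-66946115, plus strand): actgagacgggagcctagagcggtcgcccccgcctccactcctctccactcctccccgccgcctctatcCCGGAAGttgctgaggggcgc
The CCGGAAG core is present in the windows of Rpl39 and Rps27l. CTTTC lies within 50 bases of the start in those of Rpl39 and Rpl35a, past the last base printed, and in neither of the other two. The printed bases of Rpl35a also hold these letters in lower case, farther upstream than the counted stretch. Those of Rpl39 lie inside its GENCODE gene (X:37082520-37085402), so the RefSeq start used here is not the 5′ end of that model. Its motif positions hold for the RefSeq start only.

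Genes around the ribosome were read from the same fit, where 7.2% of all tested genes were lower and 10.2% higher in CML. Of 8 tested cytosolic ribosome genes outside the symbol rule, 1 fell and 0 rose (0 at an unadjusted p under 0.05, and 0 by DESeq2 and limma-voom). It was Rpl22l1, the paralogue of Rpl22, at 136, 102 and 91.3 CPM in CML and 181, 187 and 139 CPM in WT (log2 fold change -0.63, adjusted p = 0.0213, SE 0.16), a call lost without CML 2 (0.0686), CML 3 (0.0890), WT 1 (0.0817) or WT 2 (0.0929). Rpl22, at 211, 182 and 195 CPM in CML and 173, 192 and 239 CPM in WT, had a change of -0.04 (adjusted p = 0.874). The remaining 7, among them Rpsa, Rps3a1, Fau, Rack1, Rpl7l1 and Rpl36al, had log2 fold changes from -0.33 to 0.04.

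Among 24 translation factors and other TOP mRNAs, 4 (16.7%) fell and 0 rose (edgeR), beside 7.2% and 10.2% of all tested genes. Their median log2 fold change was -0.22. Likewise 0 rose at an unadjusted p under 0.05 and by DESeq2 and limma-voom. The 4 lower genes are not translation factors. They were Npm1, a nucleolar chaperone (-0.75, adjusted p = 0.00248, SE 0.14), Gas5, a host gene of small nucleolar RNAs (-0.74, adjusted p = 0.00189, SE 0.13), Nap1l1, a histone chaperone (-0.68, adjusted p = 0.00336), and Hnrnpa1, an RNA-binding protein gene (-0.58, adjusted p = 0.0116). Gas5 was at 217, 194 and 230 CPM in CML and 378, 393 and 300 CPM in WT. Without CML 3 (0.0668) or WT 2 (0.0725) Hnrnpa1 did not pass. DESeq2 called 8 of the 24 lower.

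Of 22 chaperones and assembly factors of ribosomal proteins, 4 (18.2%) fell and 0 rose (edgeR), beside 7.2% and 10.2% of all tested genes. At an unadjusted p under 0.05, and by DESeq2 and limma-voom, 0 rose as well. Ncl, which encodes nucleolin, was at 374, 350 and 367 CPM in CML and 710, 597 and 437 CPM in WT (log2 fold change -0.68, adjusted p = 0.0105, SE 0.16). Ak6, a partner of Rps14 in assembly, was at -0.54 (adjusted p = 0.00834), Ltv1, a small subunit assembly factor, at -0.49 (0.0453), and Nmd3, the export adaptor of the large subunit, at -0.42 (0.0447). Ak6 lost its call without CML 2 (0.0521) or WT 2 (0.0544), Nmd3 without CML 2 (0.165), CML 3 (0.132), WT 1 (0.128) or WT 2 (0.189), and Ltv1 in all 5 fits that kept WT 3 (0.0684 to 0.178). Limma-voom called 2 of the 22 lower.

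Of the enzymes that modify ribosomal proteins, 1 of 20 (5%, below the 7.2% of all genes) fell and 0 rose (0 also at an unadjusted p under 0.05, by DESeq2 and by limma-voom; DESeq2 called 3 lower). It was Rps6kb1, the S6 kinase gene, at 57.5, 63.9 and 68.4 CPM in CML and 103, 92.3 and 74.1 CPM in WT (log2 fold change -0.50, adjusted p = 0.0221, SE 0.14). That call was lost without CML 1 (0.0547), CML 2 (0.0541), WT 1 (0.0825) or WT 2 (0.0890). Of 24 genes of mTOR and LARP1 control, 2 rose and 2 fell, or 8.33% each way, near the 10.2% and 7.2% of all genes, with a median log2 fold change of -0.01. Castor1, an arginine sensor upstream of mTOR, rose by 1.76 on the log2 scale (adjusted p = 0.00153, SE 0.27) and Rragd, a Rag GTPase, by 1.75 at 0.942 to 1.82 CPM in CML (adjusted p = 0.0273). Deptor, an inhibitor of mTOR, fell by 1.86 (adjusted p = 0.000413, SE 0.24) and Eif4e, the cap-binding protein, by 0.46 (adjusted p = 0.0104, SE 0.11). Eif4e missed the threshold without CML 2 (0.0530), CML 3 (0.0639) or WT 2 (0.0688), and Rragd without CML 2 (0.114), CML 3 (0.0677) or WT 2 (0.124).

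On the p53 and MDM2 side of ribosomal stress, 2 of 13 genes rose (15.4%) and 1 fell (7.69%). Of all tested genes 10.2% rose and 7.2% fell, so the share that fell was near that of all genes. The median log2 fold change of the 13 genes was 0.07. Cdkn1a, the cell cycle inhibitor p21, was at 62.3, 96.2 and 78.4 CPM in CML and 36.3, 41.2 and 45.0 CPM in WT (log2 fold change 0.95, adjusted p = 0.00133, SE 0.16). Pmaip1, which encodes the cell death protein Noxa, rose by 0.71 on the log2 scale (adjusted p = 0.0201), and Eda2r, a death receptor gene, fell by 0.95 (adjusted p = 0.00374). Pmaip1 lost its call without CML 2 (0.0728), WT 1 (0.0630), WT 2 (0.0539) or WT 3 (0.0752).

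Among 19 tested factors linked to ribosomal protein promoters, 2 rose (10.5%) and 1 fell (5.26%), near the shares of all genes, with a median of -0.07. Mycn, a Myc family activator, was at 10.9, 13.2 and 14.6 CPM in CML and 84.5, 102 and 129 CPM in WT (log2 fold change -3.03, adjusted p = 2.95e-07, SE 0.18). Mxd1, a repressor of the Myc network, rose by 1.13 on the log2 scale (adjusted p = 0.000704, SE 0.17), and Zbtb7a, a repressor of the zinc finger class, by 0.53 (adjusted p = 0.0398, SE 0.16). The call of Zbtb7a was lost without CML 2 (0.131), CML 3 (0.155), WT 1 (0.133) or WT 2 (0.137).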

How the data were processed

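The authors deposited estimated counts per gene symbol, 1 column per library, not scaled to a common total; between 33.9% and 36.0% of the values of a library were not whole numbers. The submitters' processing notes list the tools STAR 2.7.3a and Partek 8.0 and the mm10 build, without roles or order. The sources used here state neither annotation nor strand setting nor the treatment of reads that fit several genes, so values of genes with copies, overlaps or antisense partners are uncertain. Per the labels' protocols, RNA came from an RNeasy Plus kit and libraries from Nextera XT. Titles gave group and replicate number, and 3 libraries were used per group.

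Counts were rounded to whole numbers. Rows with too few counts were removed with filterByExpr of edgeR 4.0.16 (minimum count 10; R 4.3.3), which left 16221 genes. The test was the edgeR quasi-likelihood F test, two-sided, with TMM scaling, robust dispersions and group as the only term, and Benjamini-Hochberg adjustment over all tested genes at 0.05. Standard errors (SE) are the size of the fold change over the square root of F, and CPM are TMM-scaled. Alternatives used DESeq2 1.42.0 and limma-voom (limma 3.58.1). GENCODE M21 (GRCm38) matched 28951 symbols and gave coordinates, lengths, GC content and transcripts. Copy rows were found with BLAST 2.17.0 and added to the gene of the best match; Rpl6l and Rpl32l then joined Rpl6 and Rpl32. Scripts were tested on simulated data.

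Named genes are, from each subunit, the 8 called members with the lowest adjusted p and the members with the highest and lowest fold change and level per length, then paralogues with a symbol ending in l, the 5S particle, the stalk, Rps6, Rps14, Rps19, Rps26, Rps27a and Rps4x. From every other list the rule takes up to 4 called genes with the lowest adjusted p, or 1 without calls, and all ribosome genes outside the symbol rule. Rpl10, and Rpl8, Rpl22 and Rps3 as members of a class, were named after their values were seen. A few genes that the rule takes are not reported here. The members, the lists and the alternatives were chosen with earlier results of these data known.

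No 2 libraries differed by as little as sampling noise (smallest chi-square per degree of freedom 5.73). Libraries of the same number did not deviate together (correlations -0.02, -0.05 and 0.01), so the numbers were not taken as pairs.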

Additional observations from a re-analysis of the deposited data

How the results depend on the processing

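Over 23 alternatives, 3 of them chosen after seeing the data (copies added by sequence, CT010467.1 removed, annotated pseudogenes left out), 0 ribosomal protein rows were higher in CML and both subunit medians stayed below 0 (large -0.26 to -0.10, small -0.25 to -0.06). Numbers of lower members moved more. Library totals gave 7 large and 2 small subunit calls. Of 16 alternatives that keep all libraries, the calls of members held in 16 for Rpl39, Rpl30, Rpl21 and Rpl23, in 12 to 15 for the other called members but Rpl10, and in 8 for Rpl10. With rows named as pseudogenes added, 6 large and 3 small subunit members were lower, and with sequence-matched copies 5 and 2. The difference between the subunit medians, 0.04, became 0.012 with a mean of at least 50 counts, 0.0085 with named pseudogenes and 0.012 with copies. Of the other lists, 20 genes were called, 39 with length and GC trends removed and 36 with the replicate block added to that. Leaving out 1 library gave 3 to 13 large and 0 to 6 small subunit calls, 10 to 33 calls in the other lists, 1466 to 4122 over all genes, and a difference of subunit medians from -0.00034 to 0.061. By library left out, the large and small subunit calls were 12 and 5 without CML replicate 1, 6 and 0 without CML replicate 2, 3 and 2 without CML replicate 3, 6 and 3 without WT replicate 1, 3 and 0 without WT replicate 2 and 13 and 6 without WT replicate 3. On sums with copies 1 to 9 members were lower in those fits, the 1 being Rpl39 without CML replicate 2 or CML replicate 3. The replicate block alone gave 9 large and 5 small subunit calls and 7 sums.

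Of 56 named genes, 11 turned their sign somewhere, 0 of them past the threshold. Rps19 (0.004) was at -0.0024 with median-ratio size factors and with DESeq2, -0.026 without a low-count filter, -0.086 with length and GC trends removed (-0.087 with the block), -0.011 with named pseudogenes and -0.013 with copies. Rps6, Rps26, Rpl7l1 and Rpsa were at 0.035, 0.015, 0.085 and 0.034 with library totals, and Rpl7l1 at 0.0055 with a mean of 50 counts. Rpl6l was at -0.0012 without a filter, and Rplp0, Rpl6l and Fau at -0.049, -0.074 and -0.016 with length and GC trends removed (-0.047, -0.074 and -0.017 with the block). Leaving out 1 library gave -0.12 to 0.14 for Rps19, -0.18 to 0.011 for Rps6, -0.19 to 0.051 for Rps26, -0.054 to 0.052 for Rpl7l1, -0.18 to 0.10 for Rpsa, -0.036 to 0.13 for Rpl6l, -0.079 to 0.17 for Fau, -0.34 to 0.037 for Rpl32l, -0.24 to 0.0076 for Rplp1 and -0.22 to 0.0028 for Rack1. The cause was not tested for these shifts. How depth limits rows of a few CPM was not tested. The WT libraries alone ran from -0.10 to 0.17 in the median large subunit gene.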
